A study of Mus musculus with 6 samples.

Results

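A set of 10 genes that hold back apoptosis was followed here, 6 of the BCL2 family (*Bcl2*, *Bcl2l1*, *Bcl2l2*, *Mcl1*, *Bcl2a1b*, *Bcl2a1d*) and 4 that encode inhibitor of apoptosis proteins, or IAPs (*Birc2*, *Birc3*, *Birc6*, *Xiap*). They were picked by gene name and all 10 were found among the 54532 genes of the expression table. RNA had been sequenced from GFP+ leukemia cells sorted from mouse bone marrow, with 3 libraries of *WT Phf6,RE9a* (replicates 1, 2 and 3, called WT below) and 3 of *VC Phf6,RE9a* (replicates 11, 12 and 13, called VC below). Both groups are acute myeloid leukemias driven by a retrovirus carrying RUNX1-ETO9a (RE9a) and GFP in fetal liver cells, kept by serial transplantation into male recipients, and both carry the floxed *Phf6* allele (Phf6 fl/y). VC cells (Vav1-Cre;Phf6 fl/y) are the *Phf6* knockout, and their libraries are titled KO. They carry *Vav1-Cre* in addition, a transgene that acts throughout the blood system. The labels do not say whether libraries of a group came from separate leukemias, so p-values measure the spread between these samples, which may be technical.

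BCL2, BCL-XL (from *Bcl2l1*), BCL-W (from *Bcl2l2*), MCL1 and the A1 proteins (from the *Bcl2a1* copies) hold the BH3-only proteins and the pore formers BAX and BAK in check at the mitochondrion. IAPs act elsewhere in the pathway. XIAP blocks caspases directly, cIAP1 and cIAP2 (from *Birc2* and *Birc3*) are ubiquitin ligases at TNF receptors, and BIRC6 is a very large ubiquitin-conjugating enzyme. *Birc3*, *Bcl2l1* and the A1 genes are known targets of NF-κB, and myeloid leukemias are known to rely on MCL1 and BCL2. For *BCL2*, the study's authors cite an earlier report that the NF-κB subunit p50 binds the gene and promotes its transcription.

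The genes *Bcl2*, *Bcl2l2* and *Birc3* were lower in VC cells, and *Bcl2* was lower by far more than *Bcl2l2* or *Birc3*. That is 3 of the 8 genes with enough counts to test, at an adjusted p under 0.05 from edgeR's quasi-likelihood test, where 22.7% of all 14169 genes were lower. Higher were 0 of the 8, where 21.5% of all genes were higher and 44.2% changed in either direction. At an unadjusted p under 0.05, by DESeq2 and by limma the number higher was also 0. The values of the groups did not overlap for 6 of the 8, against 57.3% of all genes. The median log2 fold change (log2FC, VC over WT) was -0.19 for the 8 and 0.013 for all genes.

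Libraries held 15675358 to 16817994 counts. The targeted gene *Phf6* was lower in each VC library than in any WT library (log2FC -1.66, SE 0.13, adjusted p = 9.32e-05 from edgeR). Its transcript was not absent from VC cells, with at least 10 counts in every library, and the source of these reads was not tested. The blood cell genes *Ptprc*, *Spi1* and *Vav1* were read in all 6 libraries. Levels are given as CPM, counts scaled to TMM-adjusted library size, with the standard error (SE) of each log2FC. In bulk RNA, fewer cells of a type and less RNA per cell cannot be told apart.

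*Bcl2*, the founding gene of the family, lies on the minus strand of chromosome 1 (GRCm38, 106538178 to 106714274). WT replicates 1, 2 and 3 had 560, 699 and 461 counts, and VC replicates 11, 12 and 13 had 28, 27 and 21. In CPM these were 36.4, 47.4 and 27.9 against 1.65, 1.57 and 1.25. Every VC library was far below every WT library, yet transcript was still read in each. The level was 24.8-fold lower (95% interval 16.5 to 37.4), with a log2FC of -4.63 and an adjusted p of 2.84e-05 from edgeR. By size of change *Bcl2* ranked 268 of 14169 genes. It passed under all 12 alternative settings, although limma on log2(FPKM + 1) gave a log2FC of -2.10, a scale that understates the change of low genes.

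Promoter windows of *Bcl2*, which changed most, and of *Bcl2l1*, which alone held a match to the NF-κB consensus, are shown from RefSeq (GRCm38.p6, both minus strand, chr1:106714241-106714540 and chr2:152830668-152830967). Each runs from 250 bases before to 50 after an annotated start, and capitals mark the bases of the match, if any.
Bcl2: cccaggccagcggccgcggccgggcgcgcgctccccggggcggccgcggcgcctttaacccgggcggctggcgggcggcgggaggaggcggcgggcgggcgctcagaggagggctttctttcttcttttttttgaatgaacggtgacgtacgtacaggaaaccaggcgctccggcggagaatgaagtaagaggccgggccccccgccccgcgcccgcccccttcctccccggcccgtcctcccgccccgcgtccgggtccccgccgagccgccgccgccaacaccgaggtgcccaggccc
Bcl2l1: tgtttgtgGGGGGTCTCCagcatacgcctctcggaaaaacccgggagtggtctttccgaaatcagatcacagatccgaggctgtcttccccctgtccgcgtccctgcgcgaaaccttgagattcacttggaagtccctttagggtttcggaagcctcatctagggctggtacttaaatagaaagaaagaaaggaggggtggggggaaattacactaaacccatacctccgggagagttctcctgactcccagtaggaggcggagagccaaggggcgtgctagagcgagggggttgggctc
The 10 genes had 15 such windows, of which 1 (6.67%) held the consensus on either strand, compared with 4.51% of all 32851 windows. The match belongs to 1 of 3 annotated starts of *Bcl2l1*. The windows of *Bcl2*, *Bcl2l2* and *Birc3* did not hold these letters, which says nothing about binding.

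*Bcl2l2*, the BCL-W gene on chromosome 14 (54883377 to 54888234), had 397, 467 and 485 counts in the WT libraries and 246, 285 and 241 in the VC libraries. The groups did not overlap, and its level was 1.91-fold lower (95% interval 1.54 to 2.36), adjusted p = 0.00117 from edgeR. The cIAP2 gene *Birc3* on chromosome 9 (7848699 to 7873186) had 1204, 1125 and 1013 counts in WT and 732, 654 and 779 in VC libraries. All VC values were again under all WT values, and its level was 1.69-fold lower (95% interval 1.38 to 2.07), adjusted p = 0.00231. Both passed under all 12 alternatives, with adjusted p up to 0.00813 for *Bcl2l2* and 0.0123 for *Birc3*.

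**Figure D1:**
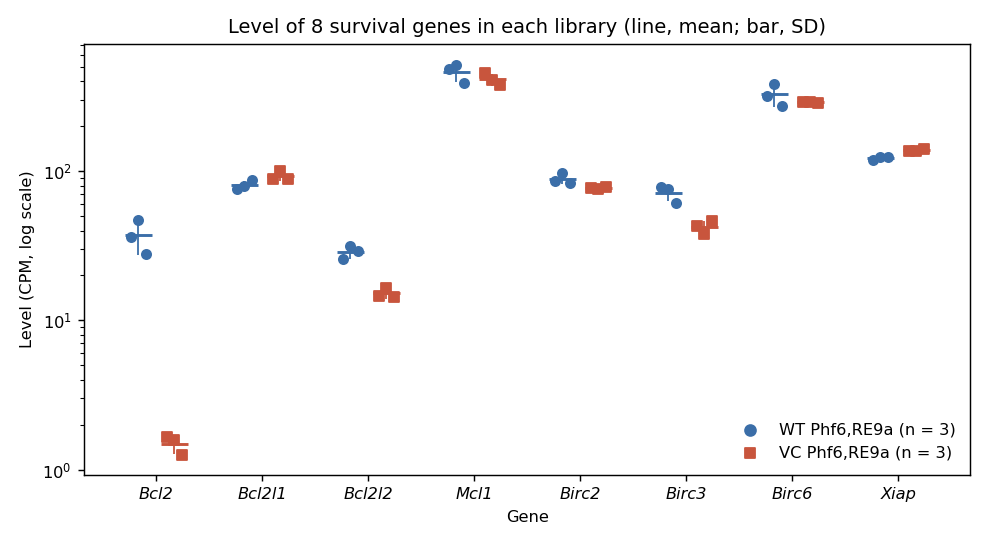
Level of the 8 tested genes in each library, in CPM on a log axis, for WT and VC cells, with the mean and SD (n = 3). *Bcl2* lies at 27.9 to 47.4 CPM in WT and 1.25 to 1.65 CPM in VC libraries, while the *Mcl1* and *Birc6* points of the groups overlap.

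*Mcl1* (chromosome 3, 95658788 to 95663176) encodes a short-lived survival protein on which many blood cells depend. It was read 7432, 7564 and 6406 times in WT and 7665, 7050 and 6337 times in VC libraries. The CPM values of 482, 513 and 388 and 453, 411 and 377 overlapped. A difference was not detected (log2FC -0.16, 95% interval -0.46 to 0.14, adjusted p = 0.355 from edgeR).

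*Bcl2l1* (chromosome 2, 152780668 to 152831728), the BCL-XL gene, was read 1167, 1180 and 1437 times in WT and 1511, 1713 and 1481 times in VC libraries. The CPM values lay at 75.8 to 87.0 and 88.0 to 99.8, so VC was the higher group by a narrow gap. It did not pass (log2FC 0.19, 95% interval -0.022 to 0.40, adjusted p = 0.129 from edgeR), nor under any of the 12 alternatives.

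*Bcl2a1b* and *Bcl2a1d*, copies of the A1 gene on chromosome 9 (89199209 to 89207827 and 88723285 to 88731914), were close to absent from the counts and were not tested. *Bcl2a1b* had 2, 1 and 0 counts in WT and 0, 0 and 0 in VC libraries. For *Bcl2a1d* the counts were 1, 1 and 1 and 4, 3 and 2. A count of 0 allows up to 3 counts, or 0.175 to 0.204 CPM, by counting error only. Summed with *Bcl2a1a* and *Bcl2a1c*, the copies reached 5, 3 and 1 counts in WT and 4, 3 and 2 in VC libraries.
The first 120 coding bases of each copy (GENCODE M21) are shown because the copies are close in sequence, with capitals where they differ.
Bcl2a1b: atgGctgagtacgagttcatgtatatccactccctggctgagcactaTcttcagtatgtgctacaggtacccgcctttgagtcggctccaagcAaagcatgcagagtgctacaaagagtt
Bcl2a1d: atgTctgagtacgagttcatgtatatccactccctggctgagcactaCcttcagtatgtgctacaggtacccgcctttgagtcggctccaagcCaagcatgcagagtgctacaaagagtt
Over all 516 coding bases the copies differ at 6 positions (98.84% identity), counted from the A of the start codon with the *Bcl2a1b* base first as G4T, T48C, A94C, G312A, C381G and T490A. Of all stretches of 150 bases, the read length, 14.2% of *Bcl2a1b* also occur in *Bcl2a1d* and 10.2% in *Bcl2a1a*, and 26.5% of *Bcl2a1d* occur in *Bcl2a1a*, so the split of such reads between the copies is uncertain. A further gene annotated over *Bcl2a1b*, *Gm29094*, holds 37.9% of the *Bcl2a1b* stretches and had 0 counts in all 6 libraries.

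Of the other IAP genes, *Birc2* (chromosome 9, 7818227 to 7837064), which encodes cIAP1 and neighbours *Birc3*, was read 1325, 1427 and 1381 times in WT and 1310, 1299 and 1328 times in VC libraries. Its CPM values of 83.6 to 96.8 and 75.7 to 78.9 did not overlap. The log2FC of -0.20 (95% interval -0.40 to -0.0019) had an unadjusted p of 0.0483 and did not pass after adjustment (0.0933, edgeR).
*Xiap* (chromosome X, 42059679 to 42109656) was read 1834, 1835 and 2071 times in WT and 2301, 2349 and 2366 times in VC libraries. Its CPM values of 119 to 125 and 136 to 141 were apart but close, and it did not pass (log2FC 0.16, 95% interval -0.0033 to 0.33, adjusted p = 0.101 from edgeR).
*Birc6* (chromosome 17, 74528295 to 74703356) was read 4953, 5688 and 4521 times in WT and 4899, 5022 and 4787 times in VC libraries, with overlap in CPM. It did not pass (log2FC -0.18, 95% interval -0.47 to 0.12, adjusted p = 0.290 from edgeR), but did so as lower without WT replicate 3 (log2FC -0.30, adjusted p = 0.0486). Its WT libraries varied by 17.2% of their mean and its VC libraries by 1.43%.

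**Figure D2:**
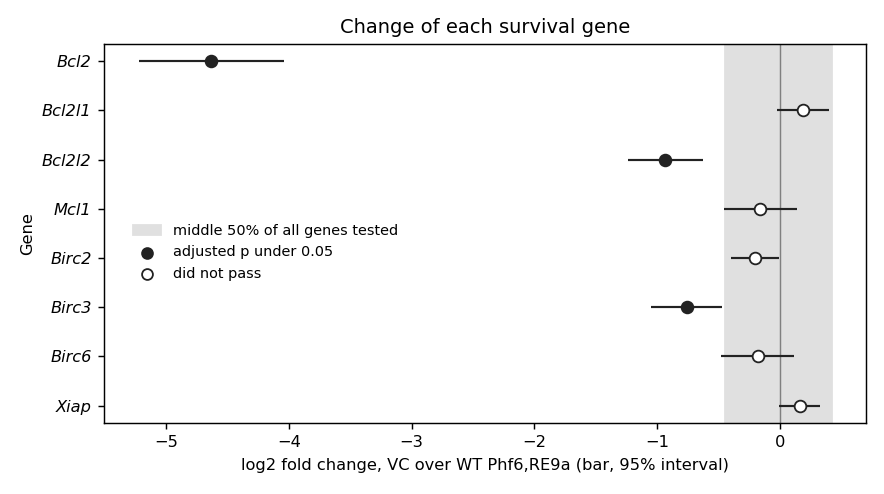
Log2 fold change of the 8 tested genes, VC over WT, with 95% intervals from edgeR. *Bcl2* at -4.63, *Bcl2l2* at -0.93 and *Birc3* at -0.76 are the genes that passed an adjusted p of 0.05, and the intervals of *Mcl1*, *Bcl2l1*, *Birc6* and *Xiap* include 0.

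Levels of different genes can be set side by side in FPKM, which accounts for gene length. *Mcl1* was the highest in both groups, at 134 ± 19.3 FPKM in WT and 119 ± 11.3 in VC cells (SD, n = 3). In WT cells *Birc2* (19.3 ± 1.52) and *Bcl2l1* (17.5 ± 1.14) followed, with overlapping libraries, and then *Birc3*, *Xiap* and *Birc6*, each overlapping its neighbour. *Bcl2l2* (6.44 ± 0.637) and *Bcl2* (4.04 ± 1.06) were lower than these and apart from each other. In VC cells *Bcl2l1* (19.9 ± 1.51) stood above *Birc2* (16.7 ± 0.252), and *Birc3* (8.38 ± 0.768) stood under *Xiap* and *Birc6*, each without overlap. *Bcl2* (0.161 ± 0.0238) was next to *Bcl2a1d* (0.202 ± 0.0675), with which it overlapped.

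Of the FPKM summed over the BCL2 genes, *Mcl1* held 84.2%, 83.4% and 79.8% in WT and 85.1%, 82.3% and 82.9% in VC libraries, with overlap. The share of *Bcl2* was 2.37%, 2.88% and 2.14% in WT and 0.116%, 0.118% and 0.103% in VC libraries. *Bcl2* was a small part of the sum in both groups, and the sum itself overlapped between the groups (162 ± 19.6 and 143 ± 11.7 FPKM, SD, n = 3).
Of the FPKM summed over the IAP genes, *Birc3* held 24.7% ± 1.97 in WT and 16.99% ± 1.25 in VC cells, and *Xiap* held 22.5% ± 2.11 and 29.1% ± 0.466 (SD, n = 3). The sum was 57.7 ± 4.89 FPKM in WT and 49.3 ± 0.927 in VC cells, without overlap. Shares are tied to one another and were not tested.

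**Figure D3:**
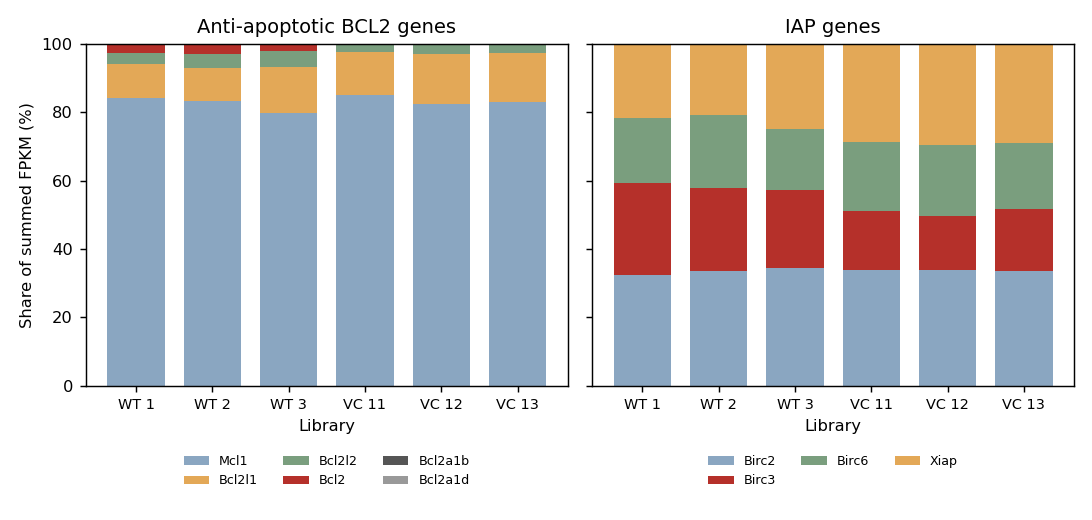
Share of summed FPKM, in percent, held by each gene in each library, for the BCL2 genes and for the IAP genes. *Mcl1* fills most of every bar of the BCL2 genes, and the *Bcl2* segment, 2.46% on average in WT libraries, is 0.112% in VC libraries.

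Related genes were counted from lists, whose median log2FC over tested genes was -0.71 for BCL2 and IAP relatives, -0.23 for BH3-only and effector genes, -0.077 for IAP partners, 0.020 for the caspase cascade, -0.080 for MCL1 turnover and -0.95 for NF-κB subunits. Their counts are to be read against the 21.5% of all genes higher and 22.7% lower. Of 9 further BCL2 and IAP relatives 4 were tested, with 1 higher and 3 lower by edgeR. *Birc5*, the survivin gene, active in mitosis, rose (log2FC 0.79, SE 0.17, adjusted p = 0.00706) and had the highest mean FPKM of the list over all libraries, although *Naip5* was higher in WT cells (21.7 ± 2.77 against 15.0 ± 3.83 FPKM, SD, n = 3). *Naip5* (log2FC -1.21, SE 0.11, adjusted p = 0.000194) and *Naip6* (log2FC -0.96, SE 0.10, adjusted p = 0.000360), which encode sensors of bacterial proteins, fell, as did *Naip2*, named after its values were seen. Reads could be split between the similar *Naip* copies.

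Of 11 genes for BH3-only proteins and the effectors BAX, BAK and BOK, 9 were tested and 3 were lower by edgeR, against 22.7% of all genes, a number that ran from 1 to 3 with 1 library left out. Higher were 0, also by DESeq2, by limma and at an unadjusted p under 0.05. *Bid* (log2FC -0.58, SE 0.10, adjusted p = 0.00319) and *Bmf* (log2FC -0.78, SE 0.22, adjusted p = 0.0237), both BH3-only, and *Bax* (log2FC -0.38, SE 0.13, adjusted p = 0.0422), the highest in FPKM, fell. *Bmf* lost the call without WT replicate 1 or any 1 VC library (adjusted p from 0.0564 to 0.0790), and *Bax* without WT replicate 1 or 3 or any 1 VC library (0.0638 to 0.118). As higher, *Bad* passed without WT replicate 1 (0.0345) and *Pmaip1* without VC replicate 13 (0.0424).

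Of the partners and antagonists of the IAPs, 3 were higher and 2 lower of 8 tested, against 21.5% and 22.7% of all genes. *Xaf1*, an antagonist of XIAP, had 116, 351 and 154 counts in WT and 1539, 1386 and 1600 in VC libraries (log2FC 2.72, SE 0.39, adjusted p = 0.00125), far apart. *Htra2*, a mitochondrial protease that binds XIAP, rose (log2FC 0.79, SE 0.11, adjusted p = 0.00106) and had the highest FPKM of the list. *Diablo*, the SMAC gene, named after its values were seen, also rose (log2FC 0.60, SE 0.16, adjusted p = 0.0180) but lost the call without WT replicate 1, VC replicate 11 or VC replicate 13 (0.0511 to 0.0745). The TNF receptor partners *Traf1* (log2FC -1.39, SE 0.23, adjusted p = 0.00249) and *Ripk1* (log2FC -0.35, SE 0.084, adjusted p = 0.0118) fell, and *Ripk1* lost the call without VC replicate 12 (0.0556).

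In the caspase cascade 2 of 9 genes were higher and 3 lower by edgeR. *Apaf1*, the apoptosome scaffold (log2FC -0.42, SE 0.075, adjusted p = 0.00323), the initiator *Casp8* (log2FC -0.34, SE 0.094, adjusted p = 0.0198) and *Cflar*, its regulator, named after its values were seen (log2FC -0.35, SE 0.12, adjusted p = 0.0406), fell. *Cflar* lost the call when any library other than WT replicate 3 was left out (adjusted p from 0.0647 to 0.125), and *Casp8* without VC replicate 11 (0.0587) or 12 (0.0784). *Cycs* passed as higher without WT replicate 3 (0.0495) and *Fadd* as lower without WT replicate 2 (0.0491).

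Among enzymes known for turnover of MCL1 protein, 4 of 5 genes were tested and *Btrc*, part of a ubiquitin ligase, was higher (log2FC 1.12, SE 0.11, adjusted p = 0.000197). Lower were 0 by edgeR, DESeq2 and limma and 1 at an unadjusted p under 0.05, *Fbxw7*, which passed without WT replicate 3 (0.0129). The ligase gene *Huwe1*, highest in FPKM, did not pass (log2FC -0.10, SE 0.086, adjusted p = 0.356).
Of the 5 NF-κB subunit genes 4 were lower, and 0 were higher by edgeR, DESeq2, limma or an unadjusted p under 0.05. *Rel* had 2592, 2365 and 1741 counts in WT and 270, 196 and 112 in VC libraries (log2FC -3.67, SE 0.32, adjusted p = 0.000145), without overlap. *Nfkb2* (log2FC -0.997, SE 0.18, adjusted p = 0.00357) also fell, as did *Nfkb1* and *Relb*, named after their values were seen, and *Relb* lost the call without VC replicate 13 (0.0504). *Rela*, highest in FPKM, did not pass (log2FC -0.31, SE 0.13, adjusted p = 0.0807) but did without WT replicate 3 (0.0273).

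**Figure D4:**
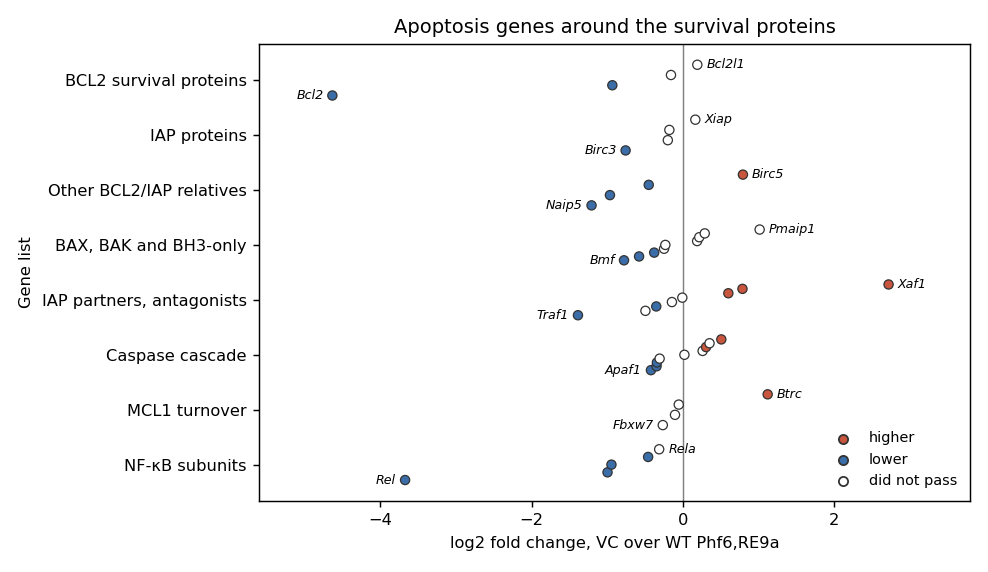
Log2 fold change, VC over WT, of each tested gene in the BCL2 and IAP groups and in lists of related genes, with calls at an adjusted p under 0.05 from edgeR. *Bcl2* at -4.63 and *Rel* at -3.67 lie furthest to the lower side and *Xaf1* at 2.72 furthest to the higher side.

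Markers of blood cell lineages differed between the same libraries as *Bcl2*, *Bcl2l2* and *Birc3*. In VC libraries 8 of 9 markers of mast cells and basophils were lower (sum 16980 to 27233 against 4695 to 5168 CPM), with *Cpa3* and *Hdc* the most abundant. Neutrophil markers were higher for 11 of 11 (168 to 533 against 1037 to 3743 CPM), with *S100a9* and *Ngp* the most abundant, and erythroid markers for 7 of 7 (1438 to 2162 against 4551 to 5124 CPM), with *Hbb-bs* and *Hba-a1*. For B cells 4 of 6 markers were tested and all 4 were higher (0.611 to 1.10 against 9.03 to 26.9 CPM), with *Pax5* among the most abundant, while *Pax5*, *Ebf1* and *Ms4a1* were at 0 in WT replicates 1 and 2. Macrophage and monocyte markers were mixed, 3 higher and 2 lower of 9 (173 to 181 against 103 to 178 CPM), with *Ccr2* and *Cx3cr1* the most abundant. T cell markers, led by *Cd8a* and *Cd28*, were too low to test (1.09 to 1.23 against 1.604 to 5.02 CPM). Of 5 general blood and progenitor genes 3 were lower (2314 to 3727 against 496 to 631 CPM), with *Kit* and *Cd34* the most abundant. In VC replicates 11, 12 and 13 the neutrophil sum was 3743, 2419 and 1037 CPM. In the same order *Bcl2* was at 1.65, 1.57 and 1.25 CPM and *Bcl2l2* at 14.5, 16.6 and 14.3 CPM. *Birc3* was at 43.2, 38.1 and 46.3 CPM. The mast cell and basophil sum was 4755, 4695 and 5168 CPM, and the general blood and progenitor sum 510, 631 and 496. In WT replicates 1, 2 and 3 the neutrophil sum was 213, 168 and 533 CPM. *Bcl2* ran in the reverse order there, at 36.4, 47.4 and 27.9 CPM. *Bcl2l2* was at 25.8, 31.7 and 29.4 CPM and *Birc3* at 78.2, 76.3 and 61.3. The mast cell sum was 24108, 27233 and 16980 CPM, and the progenitor sum 3210, 3727 and 2314. Whether the marker transcripts came from leukemia cells or from other cells cannot be told here, and their part in these results was not tested.

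By Euclidean distance of centred log2 CPM (prior count of 2) over the 6 libraries, the genes nearest to *Bcl2* were *Lhfpl3* (0.403), *Gm43844* (0.421) and *Gm29340* (0.425). They had 40, 41 and 31, 54, 55 and 41, and 59, 53 and 38 counts in WT libraries, in that order, and at most 1 count in any VC library. At such counts the prior sets how large their difference appears, so their nearness to *Bcl2* in size depends on it.

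Some members overlap other annotated genes. *Bcl2* shares 3.87% of its stretches of 150 bases with the antisense gene *D630008O14Rik*, which had 0 to 6 counts a library, and *Birc6* shares 0.817% with the antisense gene *Gm26749* (4 to 18 counts). Strand use in counting is not given in the sources used here, so such reads cannot be told apart. *Bcl2l2* shares 9.70% with *Gm20521*, which had 0 counts in all 6 libraries.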

How the data were processed

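Bone marrow GFP+ leukemia cells were profiled by RNA-sequencing, 3 libraries a group. The authors deposited raw counts for each gene, and FPKM that the authors derived from them with gene length and a library size proportional to DESeq2 size factors, as checked on the values. Columns with the authors' own group means, fold changes and p-values were left unused. The submitters' processing notes name Bowtie 0.12.0 and mm8, yet coordinates of all 10 genes equal GENCODE M21 on GRCm38. The counting tool is not given in the sources used here.

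Counts were tested with edgeR 4.0.16 under R 4.3.3, after filterByExpr and TMM, by the quasi-likelihood F test. P-values were adjusted by Benjamini-Hochberg across 14169 genes. The SE was taken as |log2FC| over the root of F. The code was tested on simulated data. An exact permutation test on 3 and 3 libraries has a smallest p of 0.1 and was not run. There were 12 alternatives: DESeq2 1.42.0, RLE size factors, no filter, a minimum of 10 counts throughout, limma 3.58.1 on log2(FPKM + 1) and on log2(FPKM + 0.1), and leaving out each of the 6 libraries. Named genes were all members, *Phf6*, in each pathway list the 2 higher and 2 lower genes of smallest p and that of highest mean FPKM, the 2 most abundant markers of each marker list, and the 3 genes most like *Bcl2*. *Septin4* is listed as *Sept4*. Some genes that this rule names are counted in their lists but not reported here by name. Members and lists were chosen with earlier results of these data known. Figures used matplotlib 3.10.9.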

Additional observations from a re-analysis of the deposited data

How the results depend on the processing

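The 8 tested survival genes kept their direction under all 12 alternatives, and their calls too, except *Birc6* without WT replicate 3. With 1 library left out, members lower numbered 3 to 4 and *Phf6* had a log2FC of -1.76 to -1.59. Over the same fits, BH3-only and effector genes numbered 0 to 1 higher and 1 to 3 lower, IAP partners 2 to 3 higher and 1 to 2 lower, caspase cascade genes 0 to 3 higher and 1 to 3 lower, MCL1 turnover genes 0 to 1 lower and NF-κB subunits 3 to 5 lower. Caspase cascade genes higher numbered 1 with no count filter, 1 with limma on log2(FPKM + 1) and 1 with limma on log2(FPKM + 0.1). These limma settings also ended the lower call of *Cflar* (adjusted p = 0.0570 and 0.0537), and that of *Bax* ended on log2(FPKM + 1) (0.0523), leaving 2 lower in each list. By summed counts in place of FPKM, the share of *Bcl2* was 6.05% in WT and 0.284% in VC cells. Some genes near 0 changed sign with 1 library left out, none passing the threshold there: log2FC ran over -0.064 to 0.41 for *Bik*, -0.48 to 0.17 for *Bbc3*, -0.031 to 0.041 for *Traf2* (and 0.0034 with at least 10 counts in every library), -0.24 to 0.024 for *Traf3*, -0.050 to 0.12 for *Casp9* and -0.10 to 0.0051 for *Usp9x*. The cause was not tested. No paired analysis was possible because the groups share no replicate number. At this depth *Bcl2a1b* and *Bcl2a1d* could not be compared.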
